A study of Mus musculus with 6 samples.

Results

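The enzymes of de novo lipogenesis make fatty acids from acetyl-CoA in the cytosol. Their genes were described here in C2C12 cells. C2C12 is a myoblast line of mouse origin, and its cells fuse to myotubes when serum is withdrawn. The set holds 9 genes chosen by name, Slc25a1, Acly, Acss2, Acaca, Acacb, Fasn, Me1, Scd1 and Scd2, of the 21899 genes in the deposited expression table. Each of the 9 symbols matched 1 gene, and all 9 passed the filter on low counts. The comparison set 3 libraries of cells kept for 24 hours with 5-fluorouracil (5-FU) at 5 µg per L against 3 control libraries, from cells that received phosphate-buffered saline (PBS). 5-FU, a fluorinated uracil used against tumours, inhibits thymidylate synthase and enters RNA and DNA, and the study calls this low dose metronomic. The genotype of all 6 libraries was given as wild type, and a time was given for the 5-FU libraries only. All 6 titles name C2C12 and were followed, although the line is written with other final digits in a second label of 5-FU replicates 2 and 3. Whether the replicates were separate cultures is not stated, so p-values measure only the spread between these libraries.

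Citrate leaves the mitochondrion through the carrier encoded by Slc25a1, and ATP-citrate lyase, encoded by Acly, splits it into acetyl-CoA and oxaloacetate. Acss2 encodes a synthetase that makes acetyl-CoA from acetate. Acetyl-CoA carboxylase, encoded by Acaca in the cytosol and by Acacb at the mitochondrial surface, makes malonyl-CoA, and fatty acid synthase, encoded by Fasn, joins these units into palmitate with NADPH that the malic enzyme of Me1 helps to supply. Scd1 and Scd2 encode stearoyl-CoA desaturases of the endoplasmic reticulum, which place the first double bond. In muscle, the malonyl-CoA made by the Acacb enzyme is known for holding back the entry of fatty acids into mitochondria. Genes of the pathway are known targets of the sterol-regulated factor SREBP1, which works with the CCAAT-binding factor NF-Y and with Sp1.

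The bases upstream of 4 genes are shown because these genes have the lowest unadjusted p-values of the set between 5-FU and PBS, 3 of them with lower values in 5-FU and Fasn with a higher one. The RefSeq promoter table (GRCm38.p6) held 7 of the 9 genes. Scd1 and Scd2 were not matched. Positions are counted back from the RefSeq start site, and the printed stretches begin at position -250. They end before any base that GENCODE M21 places inside the gene, at -1 for Slc25a1 and Fasn, at -96 for Acss2 and at -40 for Me1. Capitals mark matches on either strand to 5 motifs, the sterol regulatory element TCACNCCAC, the E-box CACGTG, the CCAAT box (CCAAT, or ATTGG on the other strand), the antioxidant response element core TGACNNNGC and the GC box (GGGCGG, or CCGCCC on the other strand).
Slc25a1, chr16:17928220-17928469, minus strand: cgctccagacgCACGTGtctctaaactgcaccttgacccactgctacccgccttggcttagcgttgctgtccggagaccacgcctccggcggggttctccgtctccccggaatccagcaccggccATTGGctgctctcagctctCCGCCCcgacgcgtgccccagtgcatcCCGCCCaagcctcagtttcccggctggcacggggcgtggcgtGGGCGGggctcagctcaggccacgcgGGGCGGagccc
Acss2, chr2:155517793-155517947, plus strand: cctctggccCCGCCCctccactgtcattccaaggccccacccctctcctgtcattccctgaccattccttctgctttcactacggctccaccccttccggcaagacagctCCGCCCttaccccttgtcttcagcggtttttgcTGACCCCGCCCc
Me1, chr9:86695954-86696164, minus strand: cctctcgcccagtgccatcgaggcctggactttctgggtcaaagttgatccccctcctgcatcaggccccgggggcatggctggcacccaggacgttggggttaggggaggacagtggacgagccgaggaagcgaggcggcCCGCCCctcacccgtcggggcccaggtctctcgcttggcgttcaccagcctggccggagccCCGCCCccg
Fasn, chr11:120824548-120824797, minus strand: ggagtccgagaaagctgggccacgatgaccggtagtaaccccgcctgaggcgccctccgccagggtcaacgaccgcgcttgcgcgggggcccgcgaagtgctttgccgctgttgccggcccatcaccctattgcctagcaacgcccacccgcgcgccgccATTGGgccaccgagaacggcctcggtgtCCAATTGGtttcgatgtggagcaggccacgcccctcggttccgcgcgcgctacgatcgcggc
The Slc25a1 stretch held an E-box from -239, a CCAAT box from -125 and 4 GC boxes. In the Acss2 stretch an antioxidant core from -107 overlapped a GC box from -102, and 2 other GC boxes lay further upstream. Its window of 250 bases also held a CCAAT box from -73 and a GC box from -37, past the end of the printed stretch. The Me1 stretch shows 2 GC boxes, and a further one from -42 ran past its end. A second RefSeq start of Me1, not printed, had 1 CCAAT box in its window and no GC box. The Fasn stretch held 3 CCAAT boxes and no GC box, and the CCAAT boxes from -62 and from -59 overlapped on opposite strands. None of the windows of these 4 genes held the sterol element in this exact form, which was found in 1.1% of 32851 promoter windows of 250 bases. The E-box was found in 6.0% of these windows, the antioxidant core in 10.2%, the CCAAT box in 33.8% and the GC box in 32.7%. These matches are a description of the letters and were not read as sites.

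No gene of lipogenesis was called between 5-FU and PBS. With edgeR's quasi-likelihood test and Benjamini-Hochberg adjustment over 12135 genes, 0 of the 9 had an adjusted p under 0.05, where 7.14% of all genes tested did (3.87% higher and 3.26% lower in 5-FU). Of all genes called, 54.3% were higher in 5-FU, against 63.7% with library size alone and 64.8% with limma on log2(TPM + 1). Without the filter on low counts edgeR called 1 of the 9, Slc25a1. DESeq2, which gave Acacb no adjusted p, and limma-voom called 0, and over all alternatives tried the number was 0 to 2. At an unadjusted p under 0.05 there were 4 of the 9 (44.4%), against 23.8% of all genes tested. The log2 fold changes were negative for 7 of the 9, against 49.7% of all genes tested, with a median of -0.08 over the set and 0.0012 over all genes tested. Called genes had a median absolute log2 fold change of 0.30. For the 8 genes other than Acacb, the 95% intervals of the fold (5-FU over PBS) ran from 0.719 at the lowest to 1.18 at the highest.

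**Figure D1:**
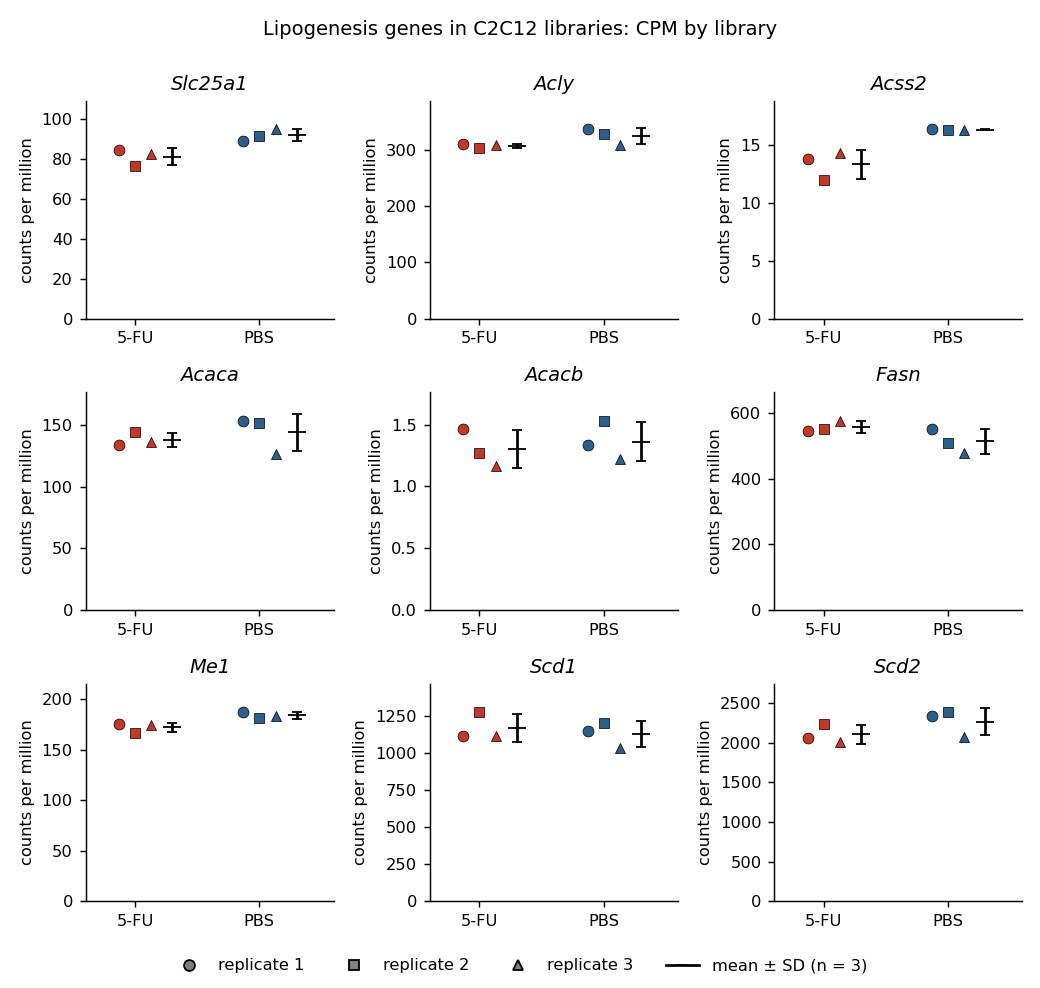
CPM (counts scaled by library size with TMM factors) of each gene in the 3 5-FU and 3 PBS libraries, with the mean and SD beside them and axes that start at 0. Slc25a1, Acss2 and Me1 are the 3 genes whose libraries do not overlap between the groups, all lower in 5-FU.

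**Figure D2:**
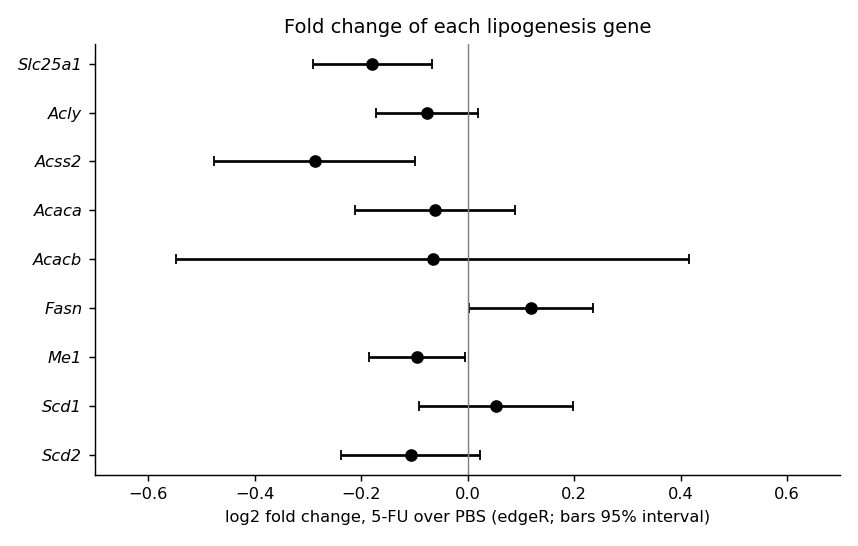
Log2 fold change of each gene, 5-FU over PBS, from edgeR with its 95% interval. The points lie between -0.29 for Acss2 and 0.12 for Fasn, and the interval of Acacb is the widest, from -0.55 to 0.42.

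The libraries held between about 19583300 and 23016700 estimated counts. The 9 genes took 0.447%, 0.478% and 0.444% of the counts in 5-FU replicates 1, 2 and 3, against 0.480%, 0.484% and 0.429% in PBS replicates 1, 2 and 3, and these shares overlapped. The muscle identity of the cells was checked with 10 markers of myoblasts and myotubes, all of which were detected and passed the filter. Among them were Myod1 at 207 to 238 TPM (reads per transcript length, scaled to the same total in each library) and Des at 1766 to 2239 TPM. Myog was at 319 to 548 TPM, Acta1 at 717 to 1272 TPM and Mymk at 135 to 246 TPM, while Pax7 was at 3.35 to 4.19 TPM. The list covers both myoblasts and myotubes and was not used to tell these states apart. The adipocyte list served as a check on another lipogenic cell type: Lep had no count in any library, Adipoq had 5 counts over the 5-FU libraries and 1 over the PBS libraries, and Plin1 had 3 over the 5-FU libraries and 2 over the PBS libraries, while Cebpa, which is not confined to adipocytes, was at 26.9 to 31.5 TPM. Of the 10 adipocyte markers 2 passed the filter, Cebpa and Fabp4. Fabp4 was at 1.54 to 2.96 TPM, with 57 counts over the 5-FU libraries and 75 over the PBS libraries. The 10 adipocyte markers added up to 28.9 to 32.1 TPM in 5-FU and 33.2 to 34.5 TPM in PBS, most of it Cebpa. The 6 macrophage markers added up to 6.66 to 11.6 TPM in 5-FU and 5.35 to 6.91 TPM in PBS, and the 5 endothelial markers added up to 0.489 to 0.767 TPM in 5-FU and 0.184 to 0.347 TPM in PBS. The part of these markers in the results was not tested. The myoblast and myotube markers added up to 3956 to 5182 TPM in 5-FU and 3722 to 4002 TPM in PBS. Of these 10, 1 had a negative log2 fold change, with a median of 0.13 over the list. An unadjusted p under 0.05 was found for 6, against 23.8% of all genes tested, and the groups did not overlap for 4, against 29.3%. In this list edgeR called Cdh15, which encodes M-cadherin, higher in 5-FU (log2 fold change 0.21, edgeR adjusted p = 0.0293), a call kept only in the refits without 5-FU replicates 1 and 3 among the 6 that left out 1 library. The part of the differentiation state in the lipogenesis values was not tested. In bulk RNA, fewer cells that express a gene and less RNA per cell cannot be told apart.

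On the length-scaled TPM scale the levels of the 9 genes spanned more than 3 orders of magnitude in both groups, and their order by group mean was the same in 5-FU and PBS. Scd2 was highest, with 779 ± 51.3 TPM in 5-FU and 818 ± 75.5 TPM in PBS (mean ± SD, n = 3 each), and Scd1 was next with 511 ± 48.2 TPM in 5-FU and 478 ± 40.8 TPM in PBS. Among all genes tested, Scd2 stood at the 98.4 and Scd1 at the 97.4 percentile of mean TPM. Acly, Fasn, Me1 and Slc25a1 formed a middle tier, with means over all 6 libraries of 144, 123, 108 and 104 TPM. Within this tier the order was tight: in PBS the libraries of Fasn and Me1 overlapped, as did those of Me1 and Slc25a1, whereas in 5-FU no neighbouring pair of the 9 overlapped. Acaca came below them at 52.1 TPM over all libraries and Acss2 at 10.2 TPM, which is at the 32.7 percentile of the genes tested. Acacb was close to the floor, with 0.387 TPM over all libraries and only 25 to 34 estimated counts a library, at the 1.7 percentile. The muscle-type carboxylase thus gave 0.524% to 1.01% of the summed Acaca and Acacb TPM in 5-FU and 0.683% to 0.806% in PBS. The highest and lowest shares in 5-FU, in replicates 2 and 3, both rest on 25 Acacb counts, given as 0.539 and 0.277 TPM. The range in 5-FU is thus not one of counts.

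**Figure D3:**
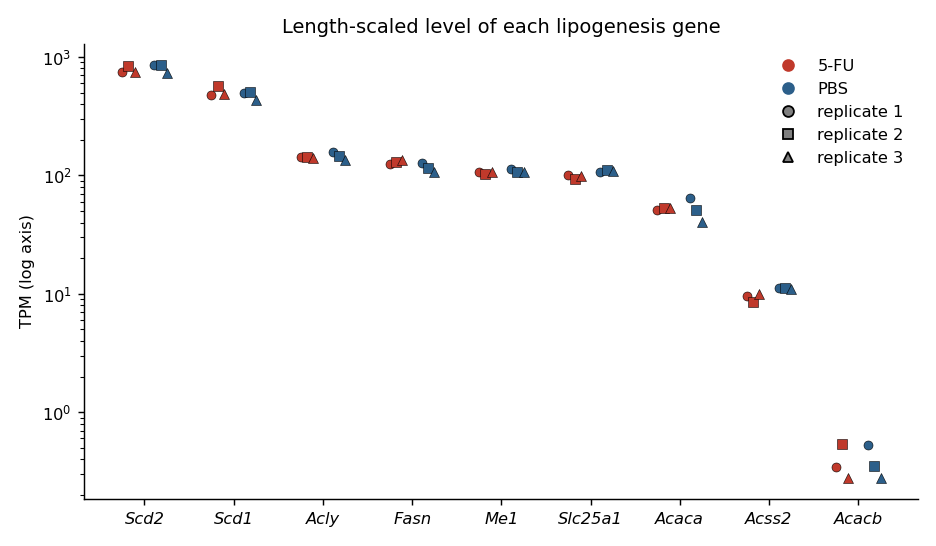
TPM of each gene (log axis) in every library, with 5-FU in red left of PBS in blue and a symbol for each replicate number. Scd2 and Scd1 lie highest, near 798 and 495 TPM over all libraries, and Acacb lies lowest, under 1 TPM in every library.

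Slc25a1 and Acss2, the genes of citrate export and acetate activation, had the lowest p-values of the set, and neither was called in the main fit. Slc25a1 (ENSMUSG00000003528), the mitochondrial citrate carrier, had 84.3, 76.2 and 82.4 CPM in 5-FU replicates 1, 2 and 3, against 88.9, 91.6 and 94.7 CPM in PBS replicates 1, 2 and 3. All 3 5-FU libraries lay below all 3 PBS libraries. In 29.3% of all genes tested the groups did not overlap, in either direction. The log2 fold change was -0.18 (SE 0.051, 95% interval -0.29 to -0.07), and the adjusted p of edgeR's quasi-likelihood test, 0.0579, missed the threshold. Without the filter on low counts the gene was just past it (edgeR adjusted p = 0.0491, log2 fold change -0.18), over a range of adjusted p from 0.0446 to 0.166 across 18 alternatives.

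Acss2 (ENSMUSG00000027605), the cytosolic acetyl-CoA synthetase, had 13.8, 11.9 and 14.3 CPM in 5-FU, against 16.3, 16.2 and 16.3 CPM in PBS, in replicate order. Here too the groups did not overlap, and the PBS libraries were nearly identical, while 5-FU replicate 2 was lowest. It had the largest log2 fold change of the set, -0.29 (SE 0.086, 95% interval -0.48 to -0.10), with an edgeR adjusted p of 0.0684, over a range from 0.0431 to 0.225 across 18 alternatives. Its counts lay between 234 and 360 a library. Without 5-FU replicate 2 the log2 fold change was -0.22.

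Acly (ENSMUSG00000020917), which makes most cytosolic acetyl-CoA from citrate, had 311, 304 and 308 CPM in 5-FU, against 337, 328 and 309 CPM in PBS. PBS replicate 3 lay within the range of the 5-FU libraries and the other two PBS libraries above it. The log2 fold change was -0.08 (SE 0.044, edgeR adjusted p = 0.310), and -0.04 with limma on log2(TPM + 1), a scale on which the median of all genes stood at 0.04.

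The carboxylases gave no separation of the groups. Acaca (ENSMUSG00000020532), the cytosolic enzyme that commits acetyl-CoA to fatty acid synthesis, had 133, 144 and 136 CPM in 5-FU, against 153, 152 and 126 CPM in PBS. PBS replicate 3 was the lowest of all 6 libraries and the other two PBS libraries the highest. The log2 fold change was -0.06 (SE 0.069, edgeR adjusted p = 0.625). It turned to 0.03 with limma on log2(TPM + 1), where the median of all genes was 0.04. In edgeR the log2 fold change was -0.15 without PBS replicate 3, and -0.02 without PBS replicate 1 and without PBS replicate 2. The deposited TPM of Acaca were 51.2, 52.6 and 52.6 in 5-FU, against 64.9, 51.5 and 40.0 in PBS. The transcript length implied by the ratio of count to TPM differed by up to 1.29 times between libraries for Acaca and by up to 1.79 times for Acacb, and by at most 1.03 times for the other 7 genes. Acacb (ENSMUSG00000042010) had 1.47, 1.27 and 1.16 CPM in 5-FU, against 1.34, 1.53 and 1.22 CPM in PBS. The groups overlapped, and with these counts the 95% interval of the log2 fold change ran from -0.55 to 0.42. Changes of either sign within it are not excluded, and the interval is not a limit of detection.

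Fasn (ENSMUSG00000025153), the palmitate-making synthase, was among the 2 genes with a positive value. It had 544, 552 and 577 CPM in 5-FU, against 552, 509.7 and 478 CPM in PBS. PBS replicate 1 was level with 5-FU replicate 2, and the other two PBS libraries lay below all 5-FU libraries. The log2 fold change was 0.12 (SE 0.053, 95% interval 0.0020 to 0.24), with an unadjusted p of 0.0468 in edgeR's quasi-likelihood test and an adjusted p of 0.202. Without PBS replicate 3 the log2 fold change was 0.07, and without PBS replicate 1 it was 0.17. Me1 (ENSMUSG00000032418), the cytosolic malic enzyme, had 175, 167 and 174 CPM in 5-FU, against 187, 181 and 183 CPM in PBS. The groups did not overlap, though the gap was narrow, with a log2 fold change of -0.10 (SE 0.041, edgeR adjusted p = 0.187). With limma on log2(TPM + 1) the log2 fold change of Me1 was -0.055, where the median of all genes was 0.04.

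The stearoyl-CoA desaturases Scd1 and Scd2 held most of the reads of the set, between 70.8% and 73.7% of the counts of the 9 genes in 5-FU and between 71.9% and 73.7% in PBS. Scd1 (ENSMUSG00000037071) had 1115, 1278 and 1119 CPM in 5-FU, against 1152, 1202 and 1032 CPM in PBS. Scd2 (ENSMUSG00000025203) had 2057, 2234 and 2013 CPM in 5-FU, against 2338, 2385 and 2067 CPM in PBS. The libraries of the groups overlapped for both genes. The log2 fold change was 0.05 for Scd1 (SE 0.066, edgeR adjusted p = 0.666) and -0.11 for Scd2 (SE 0.060, edgeR adjusted p = 0.301). That of Scd1 turned to -0.0097 without PBS replicate 3 and to -0.02 without 5-FU replicate 2. That of Scd2 was -0.17 without PBS replicate 3 and -0.07 without PBS replicate 2.

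The balance between the 2 desaturases separated the groups, although their levels did not. Scd1 made up 39.0%, 40.4% and 39.5% of the summed Scd1 and Scd2 TPM in 5-FU replicates 1, 2 and 3, against 36.6%, 37.1% and 37.1% in PBS replicates 1, 2 and 3. All 3 5-FU libraries lay above all 3 PBS libraries. For the CPM of single genes the groups did not overlap in 29.3% of all genes tested, and no such share was made for ratios of genes. This share was singled out after its values were seen, so it is given with no test. The counts of both genes were not whole numbers in any library (tolerance 0.005), while their sums were whole within 0.01 count, so that the fractions of one gene matched those of the other. Of the 50-base words in the longest Scd1 transcript of GENCODE M21, 3.03% also occurred in that of Scd2, and 2.68% of those of Scd2 in that of Scd1. The read length is not given in the sources used here, and the split of shared reads between Scd1 and Scd2 is uncertain. Of the other mouse desaturase genes, Scd3 had 1 count over the 5-FU libraries and 0 over the PBS libraries, and Scd4 was at 0.561, 0.407 and 0.373 CPM in 5-FU, against 1.003, 0.631 and 0.439 CPM in PBS.

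**Figure D4:**
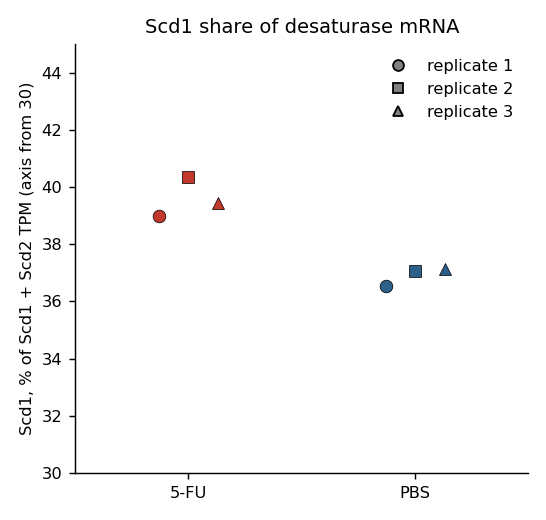
Scd1 as a percentage of the summed Scd1 and Scd2 TPM in each library, 5-FU left and PBS right, with a symbol for each replicate number and an axis that starts at 30%. The 3 5-FU libraries lie between 39.0% and 40.4%, above the PBS libraries at 36.6% to 37.1%.

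Libraries that did not overlap were found for 3 of the 9 genes (33.3%), a share near the 29.3% of all genes tested. The libraries also differed across the set. In PBS replicate 1 all 9 genes lay above their own mean over the 6 libraries on the log2 CPM scale, and in PBS replicate 2 there were 8, while in PBS replicate 3 there were 3. In 5-FU replicates 1, 2 and 3 there were 2, 4 and 1. PBS replicate 3 was low for Acaca, Fasn, Scd1, Acacb, Scd2 and Acly, at -0.15, -0.16, -0.15, -0.12, -0.075 and -0.03 from their means, and high for Slc25a1 and Acss2, at 0.14 and 0.15. 5-FU replicate 2 was lowest of all 6 libraries for Slc25a1, Acly, Acss2 and Me1 and highest for Scd1. It also had the highest sum of the myoblast and myotube markers, 5182 TPM, against 4230 and 3956 TPM in 5-FU replicates 1 and 3. What part this has in the values of that library was not tested.

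**Figure D5:**
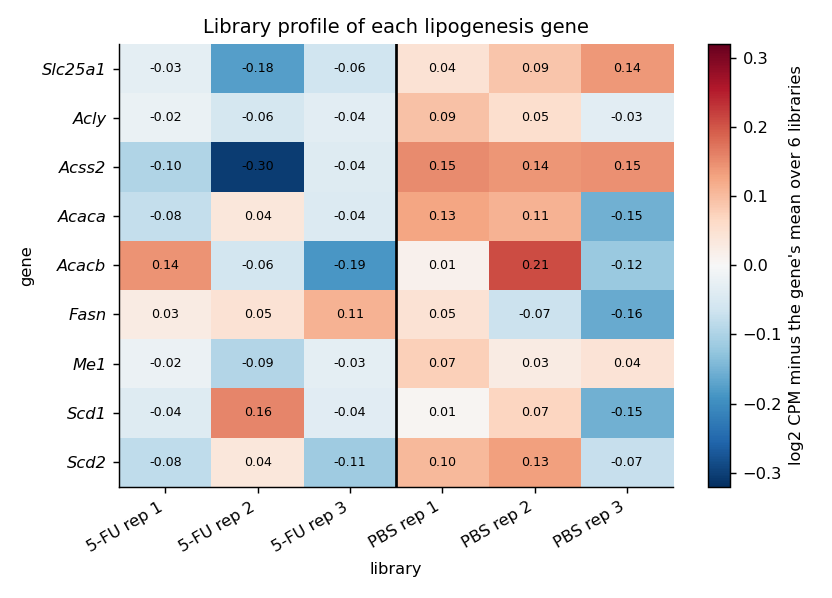
Log2 CPM of each gene in each library after subtraction of the gene's own mean over the 6 libraries, with red above and blue below the mean. PBS replicates 1 and 2 are mostly above the mean, and PBS replicate 3 is below it for Acaca, Fasn, Scd1, Acacb, Scd2 and Acly.

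Slc25a1, with the lowest p of the set, was set beside all other tested genes with a mean of at least 10 CPM, 8954 in number, by the root mean square difference of their centred log2 CPM over the 6 libraries. The nearest were Yars, the cytosolic tyrosyl-tRNA synthetase, at 0.0129, Ppp4c, the catalytic subunit of a protein phosphatase, at 0.0156, and Ostc, a subunit of the oligosaccharyltransferase, also at 0.0156, where the median gene stood at 0.127. Of these, Yars fell (log2 fold change -0.20, edgeR adjusted p = 0.0317), and Ppp4c (-0.17) and Ostc (-0.17) were not called. The call of Yars was kept only without 5-FU replicate 1 among the refits that left out 1 library. As these genes were picked by closeness over the same 6 libraries, fold changes near that of Slc25a1 follow from the choice. A shared control of these genes was not tested.

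Around the pathway, 12 of 118 tested genes of 7 neighbouring lists were called (10.2%, against 7.14% of all genes tested), 4 higher and 8 lower in 5-FU. The split moved with the scaling and the tool, with 2 higher of 11 called under RLE and under upper-quartile factors and 1 higher of 10 called by DESeq2. When 1 library was left out, 3 to 8 genes of these lists were called, of which 0 or 1 was higher. Of the 12 calls, those of Insig1, Trib3 and Aldh1l2 were kept in all 6 such refits, and those of Pdk1 and Dld in all but that without PBS replicate 2. Hsd17b12 kept its call only without PBS replicate 3 and without 5-FU replicate 3, Idh1 only without PBS replicate 3 and without 5-FU replicate 2, and Pdk4 only without 5-FU replicate 2, whereas Mlx, Rxra, Nfya and Elovl7 kept theirs in none. Among 21 tested lipogenic regulators, Insig1, which holds the SREBP precursor in the endoplasmic reticulum and is itself an SREBP target, fell to 88.7 ± 1.9 CPM in 5-FU, against 105 ± 2.4 CPM in PBS (SD, n = 3 each; edgeR adjusted p = 0.00699). Mlx, the partner of the glucose-responsive factor ChREBP, rose (log2 fold change 0.22), as did the retinoid X receptor gene Rxra (0.16) and Nfya (0.23), a subunit of NF-Y, the factor that binds CCAAT boxes. DESeq2 called none of these 3. The median of the list was -0.0062, and Mlxipl, which encodes ChREBP, had 1 count in each group. The SREBP1 gene Srebf1 had 132, 131 and 127 CPM in 5-FU, against 135, 128 and 129 CPM in PBS, and was not called.

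Among 18 genes that control acetyl-CoA carboxylase and ATP-citrate lyase, Trib3 alone was called, where 7.14% of all genes tested were. Trib3 encodes a pseudokinase known to direct the carboxylase to degradation in mouse adipose tissue, and it is also a target of the stress factor ATF4. It had 8.62, 8.50 and 10.7 CPM in 5-FU, against 17.0, 16.8 and 18.3 CPM in PBS (log2 fold change -0.91, edgeR adjusted p = 6.56e-04), and the list had a median of -0.09.

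Of 21 genes of citrate and acetyl-CoA supply, 1 rose and 2 fell, with a median of -0.04. Over all genes tested, 3.87% were called higher and 3.26% lower in 5-FU. Pdk4 rose to 102 ± 14.6 CPM in 5-FU, against 82.7 ± 2.9 CPM in PBS, and Pdk1 fell to 44.3 ± 1.8 CPM in 5-FU, against 54.8 ± 4.0 CPM in PBS (SD, n = 3 each). Both encode kinases that shut off pyruvate dehydrogenase, and their fold changes had opposite signs. Pdk4 was not called with RLE or upper-quartile factors or by limma-voom. Dld, the dihydrolipoamide dehydrogenase of the same complex, fell (log2 fold change -0.24, edgeR adjusted p = 0.0165). The mitochondrial acetate enzyme Acss1, the counterpart of Acss2, had 2 counts over the 5-FU and 0 over the PBS libraries.

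Among 21 tested rows of NADPH supply 2 fell, where 3.26% of all genes tested were called lower. Aldh1l2, a mitochondrial folate enzyme that yields NADPH, fell to 44.1 ± 1.3 CPM in 5-FU, against 66.2 ± 4.7 CPM in PBS (SD, n = 3 each; log2 fold change -0.59, edgeR adjusted p = 4.80e-04). Idh1, the cytosolic NADP-linked isocitrate dehydrogenase, fell by less (-0.17, edgeR adjusted p = 0.0458) and was not called with library size alone. The median of the list was -0.06, and G6pdx, the entry enzyme of the pentose phosphate pathway, had 172, 156 and 173 CPM in 5-FU, against 169, 174 and 176 CPM in PBS.

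Of the 20 tested genes that act on the new fatty acid, 18 had negative values, against 49.7% of all genes tested. These genes elongate, activate or esterify it, save the thioesterase gene Acot7. The median of the list was -0.08, and 2 fell, where 3.26% of all genes tested were called lower. Hsd17b12, the ketoacyl reductase of the elongation cycle, fell to 160 ± 2.8 CPM in 5-FU, against 181 ± 1.6 CPM in PBS (SD, n = 3 each; edgeR adjusted p = 0.0236). The elongase Elovl7 fell too (log2 fold change -1.01, edgeR adjusted p = 0.0365), though at only 0.668 CPM in 5-FU, against 1.36 CPM in PBS, and DESeq2 did not call it. No gene was called among 6 partners and paralogues of the desaturases, nor among 11 genes of mitochondrial fatty acid synthesis. An unadjusted p under 0.05 was found for 2 of the 6 and 1 of the 11, against 23.8% of all genes tested. In the first list Cyb5b, a cytochrome b5, had the lowest (log2 fold change -0.15, edgeR adjusted p = 0.0630). In the second it was the lipoyl transferase gene Lipt2 (-0.47, edgeR adjusted p = 0.164). The authors' deposited table of 186 differing genes, in which every absolute log2 ratio is at least 0.585, held none of the 9 lipogenesis genes and 2 of the neighbouring ones, Elovl7 and Trib3.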

How the data were processed

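RNA was extracted with Trizol, and mRNA was made into libraries with a NEBNext Ultra RNA kit, per the labels' protocols, which describe no step that marks the strand. The submitters' processing notes list StringTie 1.3.1 but not what it was used for. Aligner, counter, build and annotation: not given in the sources used here. Per the file headers, the deposited table gives for each gene and library an estimated count, not normalized, and a TPM value made by the authors, scaled by transcript length. The authors' table of differing genes holds a log2 ratio and a p-value per gene, the test behind which is not stated.

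After rounding to whole numbers, the counts were tested with edgeR 4.0.16 (R 4.3.3). The filter filterByExpr, which asks for about 10 counts in 3 libraries and 15 in all, left 12135 of 15909 genes with a count. Library totals lay between about 19583300 and 23016700, with TMM factors from 0.995 to 1.01. The test was a two-sided quasi-likelihood F test of 5-FU against PBS. P-values were adjusted by Benjamini-Hochberg over the whole set of tested genes, and a gene was called below 0.05. The SE is the size of the log2 fold change divided by the square root of F, and 95% intervals use the degrees of freedom of that test. The step was tested on simulated data. CPM were scaled with the TMM factors. Genes and lists were chosen with earlier results of these data known. Named were all 9 genes, of each neighbouring list up to 4 called genes by size or else the one with the lowest p, and the 3 profiles most like the gene with the lowest p. Marker genes, Srebf1, Mlxipl, G6pdx, Acss1, Scd3 and Scd4 were added after their values were seen. Of the 123 symbols in the neighbouring lists, Nnt matched 2 rows of the table, and both were kept. Alternatives were DESeq2 1.42.0, limma-voom (limma 3.58.1), limma on log2 TPM with pseudocounts of 1 and 0.1, other scaling, other filters, a stricter threshold, a replicate block and leaving out each library.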

Additional observations from a re-analysis of the deposited data

How the results depend on the processing

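Of the 9 lipogenesis genes 0 were called with RLE factors, upper-quartile factors, library size alone or a mean of at least 5 CPM. The same held with DESeq2, limma-voom, the 3 limma fits on TPM and each refit without 1 library. At an adjusted p under 0.01 the 0 was fixed in advance, since none was under 0.05. The fits on TPM called 156 to 528 genes in all, against 866 in the main fit. The refits without 1 library called 249 to 656, so the 0 of these fits counts for less. Acacb did not reach the 5 CPM filter or the filter of 1 TPM used in 2 of the fits on TPM, and DESeq2 gave it no adjusted p. Without the filter on low counts 1 was called, Slc25a1 at an adjusted p of 0.0491. With the titles' replicate number as a replicate block 2 were called, Slc25a1 at 0.0446 and Acss2 at 0.0431, and 1219 genes in all, among 12273 tested, since the filter on low counts follows the design. With the block and the 12135 genes of the fit without it, an alternative chosen after seeing the data, the same 2 were called, at 0.047 and 0.0458, and 1199 genes in all. Nothing in the labels says that a number marks a shared culture. Deviations from the group means of same-numbered libraries correlated across genes at 0.068, 0.314 and 0.227, each library best with its own number. With 3 libraries a group few matchings exist, and centring within each group ties these values to one another. They do not settle whether the numbers pair the libraries.

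Slc25a1, Acly, Acss2, Fasn, Me1 and Scd2 kept their sign under all 18 alternatives. The log2 fold change of Acaca turned to 0.0272 and 0.0281 with limma on TPM with pseudocounts of 1 and 0.1, and to 0.0272 without the filter. In these fits the medians of all genes were 0.0367, 0.0389 and 0.0216, in the same order. Acacb turned to 0.000915 on unfiltered TPM, to 0.0283 without PBS replicate 2 and to 0.00533 without 5-FU replicate 3, in a range from -0.166 to 0.0283 over the refits without 1 library. Scd1 turned to -0.00971 without PBS replicate 3 and to -0.0163 without 5-FU replicate 2.

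Over all genes tested, 866 were called, against 528, 513 and 156 with limma on TPM with pseudocounts of 1 and 0.1 and on unfiltered TPM with a pseudocount of 1, and 239 at an adjusted p under 0.01. Without 1 library the count was 249 to 656. Of the neighbouring genes 12 were called, against 4, 3 and 2 with these fits on TPM and 3 at an adjusted p under 0.01, and 3 to 8 without 1 library. The cause of these differences was not tested. Depth limits Acacb most, with 25 to 34 counts a library.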
